A study of Mus musculus with 6 samples.

Results

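Matrix metalloproteinases, their tissue inhibitors and the ADAM sheddases were examined in mouse peritoneal macrophages through 10 genes chosen by their symbols out of the 54532 genes of the deposited table. They are the metalloproteinases Mmp8, Mmp9, Mmp12, Mmp13, Mmp14 and Mmp19, the inhibitors Timp1 and Timp2, and the sheddases Adam8 and Adam17. All 10 had a mean level of at least 1 FPKM (fragments per kilobase of gene, scaled for the size of the library) over the 6 libraries and entered the tests.

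Macrophages were collected from the peritoneum of male, wild-type C57BL/6J mice aged 6 to 8 weeks, 5 days after an injection of 1 mL of 3% thioglycolate, which draws macrophages into the cavity, and were kept in culture overnight. Control cells received no stimulus. Model cells received LPS, a bacterial cell wall component that activates macrophages, at 0.5 μg/mL for 5.5 h and then ATP at 2 mM for 0.5 h, a pair of signals used to prime and trigger the NLRP3 inflammasome. In MUS, LPS and ATP were given in the same way together with muscone, the main odorant of musk, at 50 μM, added 5 h after LPS and 0.5 h before ATP. Each group had 2 libraries of poly-A RNA, and the labels do not say whether they came from separate animals, so the p-values below measure only the spread between these libraries, which may be technical.

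Matrix metalloproteinases are zinc-dependent enzymes that cut collagens, elastin and other matrix proteins, and they are made as inactive proenzymes that plasmin, furin or other metalloproteinases activate. TIMP proteins bind their active site and block them. ADAM proteases sit in the membrane and release the outer part of other membrane proteins, and Adam17 is the enzyme that frees TNF from the macrophage surface. The level of a transcript does not tell how much active enzyme is present.

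The promoters of Mmp13 and Timp1, which rose most among the 10 genes, are shown beside that of Mmp12, the most abundant of them, which did not pass the test. Each stretch runs 5′ to 3′ on the plus strand of GRCm38.p6 from 250 bases before to 50 bases after the RefSeq start, at chr9:7272264-7272563 for Mmp13, chrX:20869916-20870215 for Timp1 and chr9:7344147-7344446 for Mmp12. Capitals mark matches, on either strand, to TGANTCA, the letters of the AP-1 motif, or to TATAAA, the TATA box.
Mmp13: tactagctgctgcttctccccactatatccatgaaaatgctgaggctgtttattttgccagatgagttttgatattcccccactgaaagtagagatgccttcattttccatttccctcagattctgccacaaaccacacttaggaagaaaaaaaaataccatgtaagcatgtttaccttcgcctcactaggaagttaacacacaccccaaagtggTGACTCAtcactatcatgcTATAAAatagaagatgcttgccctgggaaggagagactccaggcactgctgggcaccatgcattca
Timp1: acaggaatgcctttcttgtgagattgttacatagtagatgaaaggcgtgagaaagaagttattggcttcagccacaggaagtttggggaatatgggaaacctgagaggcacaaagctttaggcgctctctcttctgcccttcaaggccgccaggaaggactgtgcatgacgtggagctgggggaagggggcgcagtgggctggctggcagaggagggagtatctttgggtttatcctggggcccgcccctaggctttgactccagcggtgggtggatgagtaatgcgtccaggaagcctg
Mmp12: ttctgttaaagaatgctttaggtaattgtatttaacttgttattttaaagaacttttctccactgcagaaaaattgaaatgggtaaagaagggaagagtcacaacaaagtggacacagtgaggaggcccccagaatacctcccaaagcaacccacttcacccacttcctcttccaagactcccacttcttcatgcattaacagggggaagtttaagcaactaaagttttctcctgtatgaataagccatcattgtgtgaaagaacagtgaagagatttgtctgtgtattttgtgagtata
RefSeq promoters were at hand for 8 of the 10 genes, all but Mmp9 and Mmp19. TGANTCA was found in 1 of the 8, Mmp13, 35 bases before its start, while 7.81% of 32851 mouse promoters of the same length hold it. TATAAA was found in 2 of the 8, Mmp13, 16 bases before the start, and Mmp8, on the reverse strand, compared with 13.6% of all promoters. A loose form of the NF-κB motif, searched on both strands, was in 5 of the 8 and in 50.8% of all promoters. The promoter of Timp1 held 4 matches to it, 3 of which overlap one another. These matches describe letters only.

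The libraries held between 15526321 and 17135442 fragments on genes. Macrophage markers summed to between 9574 and 14283 FPKM in the 6 libraries, with all 8 markers at a mean of at least 1 FPKM, whereas the neutrophil markers Elane, Ly6g, Retnlg and S100a9 were listed at 0 in every library. The 10 neutrophil markers, mainly S100a8, summed to 14.0 to 31.0 FPKM in Control, 57.7 to 112 in Model and 50.9 to 64.6 in MUS. In Model replicate 1, 24906 genes held a fragment, and in the other libraries 17406 to 19200 did. The Control libraries stood apart from each other. Tnf, Il1b, Il6, Nos2 and Ptgs2, 5 genes that LPS induces, summed to 10.2 FPKM in Control replicate 1 and 250.3 in replicate 2, against 8338 to 12639 in Model and 8025 to 9580 in MUS. In both Control libraries the scale that turns fragments into FPKM was also larger relative to the fragments on genes, at 1.34 and 1.45 times, than in the others, at 0.909 to 0.998 times. Because the Control libraries differed from each other, Model vs. Control is also given without each Control library for 7 of the genes, all but Mmp12, Mmp13 and Timp1. Leaving either out does not remove the difference in scale, which both Control libraries share.

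Between the Control libraries, 5 of the 10 genes differed by more than 1 on the log2(FPKM + 1) scale, as 9.09% of all 9794 genes tested did. In Model this was 0 of 10 against 8.28%, and in MUS 0 of 10 against 1.8%. Mmp9 and Mmp14 were higher in Control replicate 2, by 3.77 and 3.54 times in FPKM. Adam8, Mmp19 and Timp2 were higher in replicate 1, by 2.61, 2.39 and 2.02 times. The median absolute difference between replicates was 0.93 for the 10 genes in Control, 0.37 in Model and 0.20 in MUS, while over all genes it was 0.29, 0.35 and 0.20.

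**Figure D1:**
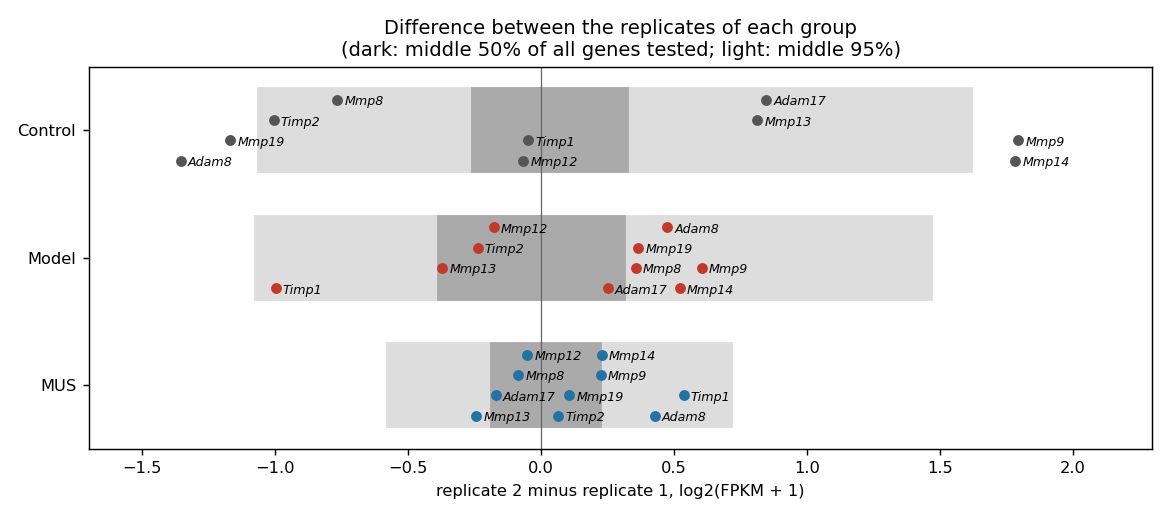
Difference between replicate 2 and replicate 1 on the log2(FPKM + 1) scale for each of the 10 genes in Control, Model and MUS, over dark and light bands that hold the middle 50% and 95% of all genes tested. In Control 5 genes lie more than 1 from zero, with Mmp9 and Mmp14 above and Adam8, Mmp19 and Timp2 below, and in Model and MUS none does.

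The first comparison, Model vs. Control, asks which of these genes changed with LPS and ATP. Mmp13 and Timp1 rose and Mmp19 fell, which made 3 of 10 genes called, that is with an adjusted p (Benjamini-Hochberg) not above 0.05 in limma and a log2 fold change beyond 1 in either direction. Of all genes tested, 15.1% were called, 9.5% as higher and 5.56% as lower. Scaled to the fragments on genes, the calls over all genes were 646 higher and 1554 lower, in place of 930 and 545. At an unadjusted p under 0.05 in limma there were 5 of the 10 genes and 3293 of all 9794. The median log2 fold change of the 10 genes was −0.34, and that of all genes was 0.04. In deposited FPKM, the libraries of Model lay above those of Control without overlap for 4 genes, Mmp12, Mmp13, Mmp14 and Timp1. For 2, Mmp19 and Timp2, they lay below, and 32.6% and 28.5% of all genes lay above and below. These counts depend on the scale. Mmp12 held 116444 and 111312 fragments in Control and 84204 and 81768 in Model, so by fragments Model lay below. For Mmp14, Control replicate 2 held 11964 fragments and Model replicate 1 held 9077, so by fragments the groups overlapped. Mmp8, Adam8 and Adam17 overlapped in FPKM but not in fragments, as given below. Overlaps given below for single genes are also in deposited FPKM, unless fragments are named. Scaled to the fragments on genes, the log2 fold changes were −0.96 for Mmp8, −1.19 for Mmp9 and −1.29 for Adam8 (adjusted p = 0.0692, 0.138 and 0.093 in limma). On that scale the median of all genes was −0.40. Exact permutation of 2 against 2 libraries allows no p below 0.333 for any single gene.

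**Figure D2:**
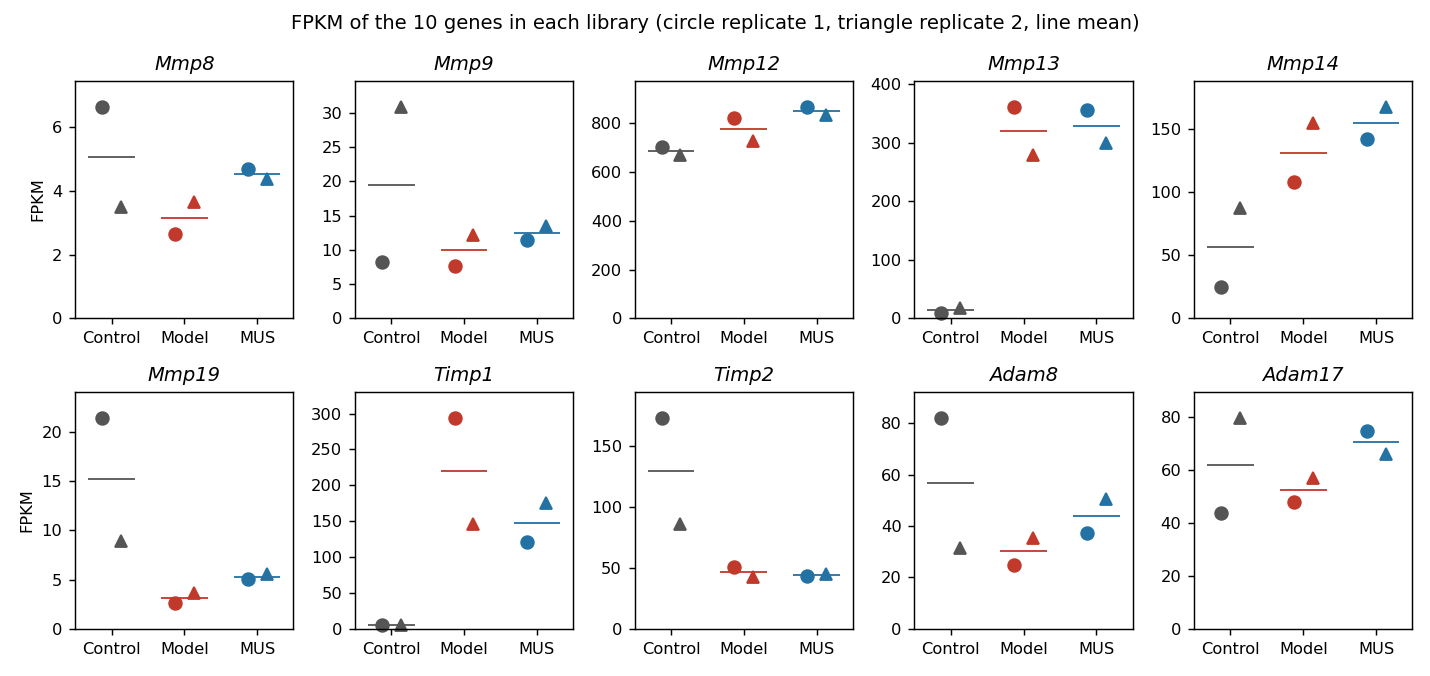
FPKM of each of the 10 genes in the 6 libraries, with circles for replicate 1, triangles for replicate 2 and a line at the group mean. Mmp13 and Timp1 are high in all 4 libraries with LPS and ATP, and Mmp9, Mmp14, Mmp19, Timp2 and Adam8 are spread widely between the Control libraries.

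Mmp13 encodes collagenase 3, which cleaves fibrillar collagen (ENSMUSG00000050578, GRCm38 chromosome 9, 7272514 to 7283331, plus strand). It was at 9.29 and 17.1 FPKM in Control, 360 and 278 in Model, with 356 and 300.2 in MUS. All 4 stimulated libraries were far above both Control libraries. Its mean rose from 13.2 ± 5.52 to 319 ± 57.9 FPKM (SD, n = 2 each), a 24.2-fold difference and a log2 fold change of 4.54 ± 0.38 (SE, adjusted p = 0.00151 in limma). It was the 64th largest rise of the 9794 genes. By level it moved from rank 2373 of the table in Control to rank 160 in Model.

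Timp1 encodes a secreted inhibitor of most metalloproteinases, among them Mmp9 (ENSMUSG00000001131, chromosome X, 20870166 to 20874735, plus strand). Its level was 4.97 and 4.77 FPKM in Control, 294 and 147 in Model, with 121 and 175 in MUS. The Model libraries differed from each other 2.00-fold, and both were well above Control. Relative to Control, Model was 45.2-fold higher, with a log2 fold change of 5.15 ± 0.40 (SE, adjusted p = 0.00117 in limma). It overlaps Syn1, on the opposite strand, which was at 1.03 to 2.40 FPKM, but 0% of its transcript stretches of 50 bases also occur in another gene on either strand.

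Mmp19 encodes a metalloproteinase that cuts basement membrane proteins (ENSMUSG00000025355, chromosome 10, 128790910 to 128800824, plus strand). In Control it was at 21.4 and 8.97 FPKM, in Model at 2.63 and 3.67, and in MUS at 5.08 and 5.54. Both Control libraries lay above all others. It fell by 1.86 ± 0.38 on the log2 scale (SE, adjusted p = 0.0199 in limma), and the mean in Model was 4.82-fold lower. Without Control replicate 1 the log2 fold change was −1.28 with an adjusted p of 0.0541, and without Control replicate 2 it was −2.44 with an adjusted p of 0.00302. The call was also lost in 4 of the other 5 fits that leave out 1 library. Of its transcript stretches of 50 bases, 24.7% also occur in another gene, all in reverse sense. Tmem198b, an overlapping gene on the opposite strand at 0.293 to 1.52 FPKM, holds more of them than any other gene. The kit does not mark strand, so reads of these stretches cannot be told apart.

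Timp2 encodes the inhibitor that also helps Mmp14 to activate the proenzyme of Mmp2 at the cell surface (ENSMUSG00000017466, chromosome 11, 118301069 to 118355740, minus strand). Control was at 173 and 85.6 FPKM, Model at 50.4 and 42.6, and MUS at 43.3 and 45.3. No Model or MUS library reached the lower Control library. Model was 2.78-fold lower in mean FPKM, with a log2 fold change of −1.37 ± 0.38 (SE), and the adjusted p of 0.0507 in limma just missed the threshold. The call was gained in 8 of 19 alternative settings and not in the other 11. Scaled to the fragments on genes, the log2 fold change was −1.92 (adjusted p = 0.0162 in limma). The other scalings described below gave −2.00, −2.15 and −1.94, with adjusted p of 0.0125, 0.0205 and 0.00909 in limma. Timp2 was thus called on each of these scales, where the medians of all genes were −0.40, −0.46, −0.06 and −0.50. With the batch number of the labels as a replicate block the adjusted p was 0.046, without Control replicate 1 it was 0.143 at a log2 fold change of −0.87, and without Control replicate 2 it was 0.00786 at −1.88. Unlike Timp1, Timp2 was thus lower in the stimulated libraries by its values, and its call depends on the scale and the fit.

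Mmp14 encodes a membrane-bound collagenase (ENSMUSG00000000957, chromosome 14, 54431612 to 54445364, plus strand). It was at 24.8 and 87.7 FPKM in Control, 108 and 155 in Model, with 143 and 168 in MUS. In deposited FPKM, every stimulated library lay above both Control libraries, but the Control libraries were far apart. By fragments, Control replicate 2, at 11964, lay above Model replicate 1, at 9077. The Model mean was 2.34-fold that of Control and the log2 fold change 1.45 ± 0.57 (SE), with an adjusted p of 0.126 in limma. Without Control replicate 1 it was 0.56 with an adjusted p of 0.417, and without Control replicate 2 it became 2.34 with an adjusted p of 0.00676.

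Mmp12 encodes macrophage elastase, which cuts elastin and is made mainly by macrophages (ENSMUSG00000049723, chromosome 9, 7344381 to 7369499, plus strand). Its levels were 703.7 and 672 FPKM in Control, 824 and 729 in Model, and they reached 866 and 836 in MUS. It was the highest of the 10 genes in every library, at rank 31 of the table in Control, 59 in Model and 44 in MUS. Model vs. Control gave a log2 fold change of 0.17, with a 95% interval from −0.64 to 0.99 and an adjusted p of 0.753 in limma. Scaled to the fragments on genes instead, it was −0.37 while the median of all genes was −0.40, so no direction can be given. Mmp1b, which overlaps Mmp12 on the opposite strand, stayed at or below 0.880 FPKM.

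Mmp9 encodes gelatinase B, which degrades denatured collagen and type IV collagen (ENSMUSG00000017737, chromosome 2, 164940780 to 164955850, plus strand). Control replicate 1 was at 8.17 FPKM and replicate 2 at 30.8. Model was at 7.65 and 12.1, and MUS at 11.4 and 13.5. The Control libraries spanned 3 of the 4 stimulated libraries, and the fourth lay just below them. Its log2 fold change was −0.68 ± 0.55 (SE, adjusted p = 0.418 in limma). Leaving out Control replicate 1 gave −1.58 with an adjusted p of 0.047, and leaving out replicate 2 gave 0.22. The direction of Mmp9 therefore rests on which Control library is used.

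Mmp8, the collagenase best known from neutrophils, was the lowest of the metalloproteinases together with Mmp19 in Model (ENSMUSG00000005800, chromosome 9, 7558456 to 7568485, plus strand). It was at 6.62 and 3.48 FPKM in Control, 2.63 and 3.65 in Model, with 4.69 and 4.37 in MUS. In FPKM, Control overlapped both other groups. By fragments it overlapped neither, at 367 and 193 in Control, 90 and 137 in Model and 172 in each MUS library. Model vs. Control gave a log2 fold change of −0.51 ± 0.29 (SE, adjusted p = 0.265 in limma), which was −0.13 without Control replicate 1 and −0.89 without Control replicate 2. Of 10 neutrophil markers only S100a8 had a mean of at least 1 FPKM, at 13.5 and 30.6 in Control and 50.3 to 110.0 in the other libraries. The part of neutrophils in the levels of Mmp8 and Mmp9 was not tested.

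Adam17 encodes the TNF-releasing sheddase (ENSMUSG00000052593, chromosome 12, 21323509 to 21373632, minus strand). Its levels were 43.9 and 79.7 FPKM in Control, 47.8 and 57.1 in Model, with 74.7 and 66.3 in MUS. In deposited FPKM, both Model libraries and both MUS libraries lay between the Control libraries. Model differed from Control by a log2 fold change of −0.18 ± 0.36 (SE, adjusted p = 0.755 in limma), which was −0.60 without Control replicate 1 and 0.25 without Control replicate 2. Scaled to the fragments on genes, Adam17 had −0.72 in this comparison (adjusted p = 0.14 in limma), where the median of all genes was −0.40. The other scalings described below gave −0.80, −0.87 and −0.72, with adjusted p of 0.121, 0.136 and 0.126 in limma. The medians of all genes were then −0.46, −0.06 and −0.50. By fragments, Control held 7175 and 13047 and Model 4828 and 6332, without overlap. The size of the difference and the overlap thus depend on the scale, and Adam17 was not called on any of these scales. Iah1, which overlaps Adam17 on the opposite strand, was at 6.51 to 10.6 FPKM.

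Adam8 encodes a sheddase of myeloid cells that acts on adhesion molecules (ENSMUSG00000025473, chromosome 7, 139978932 to 139992562, minus strand). It was at 82.0 and 31.5 FPKM in Control, 25.04 and 35.2 in Model, with 37.2 and 50.4 in MUS. In deposited FPKM, Control replicate 2 lay within the range of Model, and replicate 1 was above every other library. By fragments, Control held 8692 and 3338 and Model 1639 and 2530, without overlap. The log2 fold change was −0.76 ± 0.47 (SE, adjusted p = 0.297 in limma), which became −0.08 with an adjusted p of 0.916 without Control replicate 1 and −1.43 with an adjusted p of 0.0351 without Control replicate 2.

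Leaving out Control replicate 2 raised the number of the 10 genes called in Model vs. Control from 3 to 6, with Timp2, Mmp14 and Adam8 added, while leaving out other single libraries gave as few as 2. Mmp13 and Timp1 were called in Model vs. Control under all 19 alternative settings, with log2 fold changes from 3.94 to 4.95 and from 4.58 to 5.65. In bulk RNA, fewer cells of a type and less RNA per cell cannot be told apart.

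**Figure D3:**
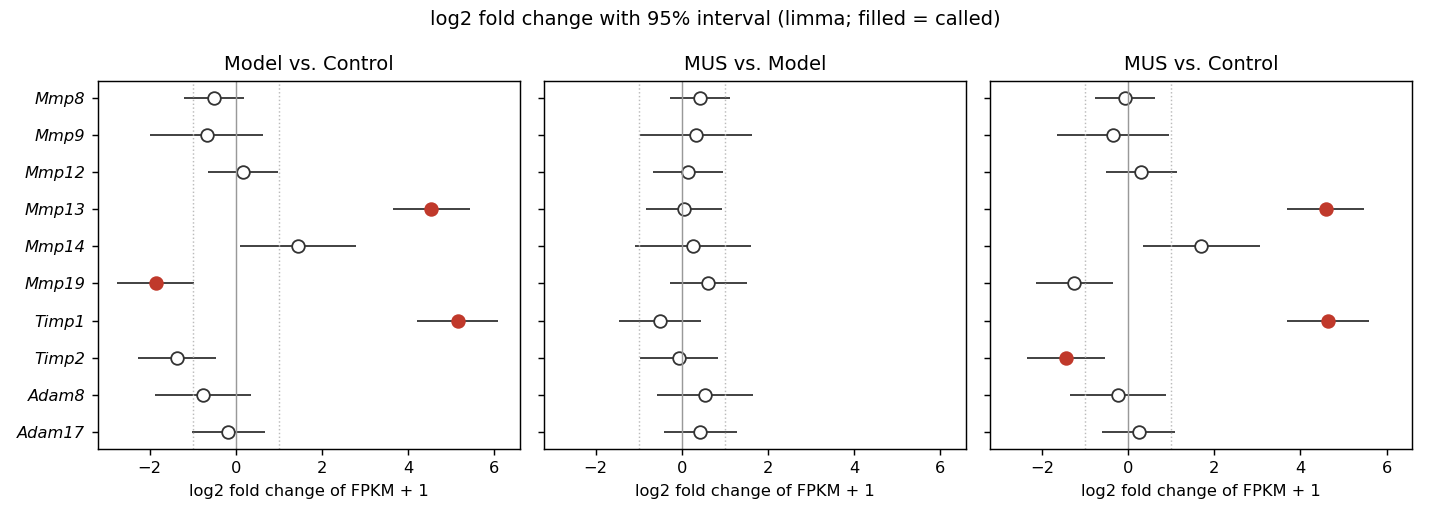
Log2 fold changes of the 10 genes on the log2(FPKM + 1) scale with 95% intervals from limma in Model vs. Control, MUS vs. Model and MUS vs. Control, with filled circles for genes called. Mmp13 and Timp1 lie far above zero in both comparisons with Control, and all 10 intervals of MUS vs. Model include zero.

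Mmp13 took a larger share of the summed level of the 6 metalloproteinases in the stimulated libraries than in Control. The sum was 774 and 820 FPKM in Control, 1306 and 1183 in Model, with 1386 and 1327 in MUS. A fragment on a 1 kb gene counted 0.0437 FPKM in both Control libraries and 0.0616 to 0.0709 in the others. The sums of Control and of the others are therefore on unlike scales, whereas shares within a library do not depend on the scale. Mmp13 made up 1.2% and 2.08% of the sum in Control, 27.6% and 23.5% in Model, with 25.7% and 22.6% in MUS. The share of Mmp12 was 90.9% and 81.9% in Control and between 61.7% and 63.1% in the 4 stimulated libraries. Mmp8, Mmp9 and Mmp19 together had 4.68% and 5.27% in Control and 0.988% to 1.76% in the others.

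The inhibitors changed places. Timp1 was 2.80% and 5.28% of the summed level of Timp1 and Timp2 in Control, 85.4% and 77.5% in Model, with 73.6% and 79.5% in MUS. Timp2 exceeded Timp1 34.7-fold and 17.9-fold in Control, whereas Timp1 exceeded Timp2 5.83-fold and 3.44-fold in Model and 2.78-fold and 3.87-fold in MUS. The summed level itself was 178 and 90.4 FPKM in Control, 344 and 189 in Model, with 164 and 221 in MUS, with Control again on an unlike scale. The ratio of the metalloproteinase sum to the inhibitor sum overlapped between the groups, at 4.35 and 9.08 in Control, 3.79 and 6.25 in Model, with 8.46 and 6.02 in MUS. For the sheddases, the ratio of Adam17 to Adam8 was 0.535 and 2.53 in Control, 1.91 and 1.62 in Model, with 2.01 and 1.32 in MUS, so that the Control libraries spanned all others.

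**Figure D4:**
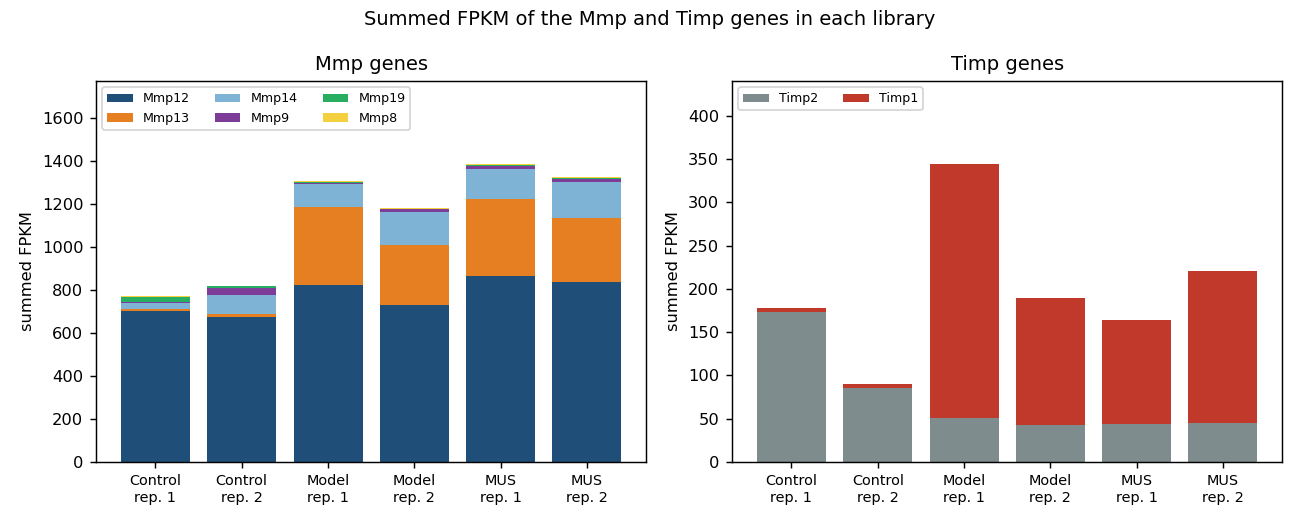
Summed FPKM of the 6 Mmp genes (left) and of Timp1 and Timp2 (right) in each library, with 1 color per gene. Mmp13 (orange) takes 22.6% to 27.6% of the Mmp sum in the 4 libraries with LPS and ATP, and Timp1 (red) takes 73.6% to 85.4% of the Timp sum there and 2.80% and 5.28% in Control.

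By level, the order in Control was Mmp12, Timp2, Adam17, Adam8, Mmp14, Mmp9, Mmp19, Mmp13, Mmp8 and Timp1. From Adam17 to Mmp13 the range of each gene overlapped that of the next, as did those of Mmp8 and Timp1, whereas Mmp12, Timp2 and Adam17 were apart from each other. In Model the order was Mmp12, Mmp13, Timp1, Mmp14, Adam17, Timp2, Adam8, Mmp9, Mmp19 and Mmp8. Here the range of Timp1 overlapped those of Mmp13 and Mmp14, Adam17 overlapped Timp2, and Mmp19 overlapped Mmp8. MUS had the order Mmp12, Mmp13, Mmp14, Timp1, Adam17, Timp2, Adam8, Mmp9, Mmp19 and Mmp8, with overlap between Mmp14 and Timp1 and between Timp2 and Adam8.

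Mmp13, Mmp12 and Mmp8 lie in the metalloproteinase cluster of chromosome 9, which holds 9 protein-coding Mmp genes within 427 kb, and also Mmp1a, which the table lists as a polymorphic pseudogene and which was at or below 0.420 FPKM. The start of Mmp12 lies 71.9 kb, and that of Mmp8 285.9 kb, from the start of Mmp13. Of the 6 other protein-coding genes of the cluster, 5 stayed under 1 FPKM in all libraries, Mmp7 and Mmp20 being listed at 0. Mmp27 was at 2.65 to 5.28 FPKM, with log2 fold changes of −0.04 in Model vs. Control and 0.23 in MUS vs. Model. Of the protein-coding genes of the whole table, 7 of 22 Mmp genes, 3 of 4 Timp genes, 5 of 33 Adam genes and 0 of 19 Adamts genes had a mean of at least 1 FPKM.

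**Figure D5:**
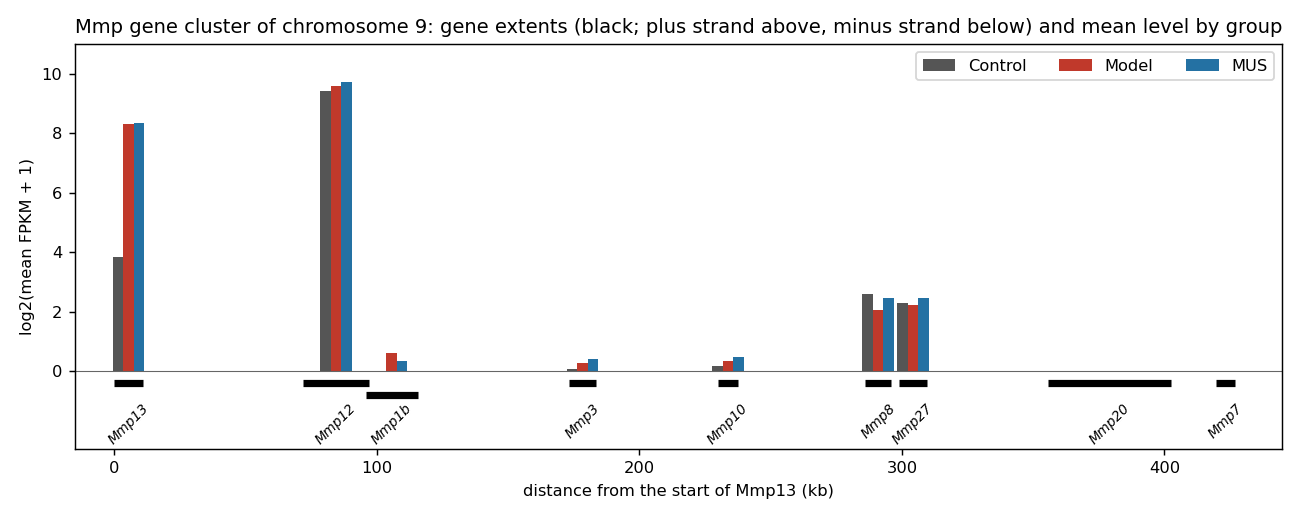
Mean level of the protein-coding Mmp genes of the chromosome 9 cluster as log2(mean FPKM + 1) in Control, Model and MUS, placed by distance from the start of Mmp13 in kb, with gene extents in black. Mmp13 differs between Control and the other groups, Mmp12 is high in all groups, and the genes between Mmp12 and Mmp8 are close to zero.

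The second comparison, MUS vs. Model, asks what muscone changed in stimulated cells. None of the 10 genes was called, and of all genes tested 0% were. limma gave 0 of the 10 genes and 825 of 9794 an unadjusted p under 0.05, and the smallest adjusted p over all genes was 0.139. Of the 10 genes, 8 had a positive and 2 a negative log2 fold change, with a median of 0.29 against 0.01 over all genes. The libraries of MUS lay above those of Model for 5 genes, Mmp8, Mmp12, Mmp19, Adam8 and Adam17, and below for 0, where 21.2% and 21% of all genes did so.

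Mmp19 had the largest positive difference, from a mean of 3.15 ± 0.739 FPKM in Model to 5.31 ± 0.330 in MUS (SD, n = 2 each). On the log2 scale this was 0.61 with a 95% interval from −0.29 to 1.51 (adjusted p = 0.733 in limma). Adam8 followed with 0.53 (−0.59 to 1.64, adjusted p = 0.82), Mmp8 with 0.43 (−0.27 to 1.12, adjusted p = 0.754) and Adam17 with 0.42 (−0.42 to 1.27, adjusted p = 0.812). All 4 intervals include a fall and reach above 1.

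Timp1 had the largest negative difference, −0.51 with an interval from −1.45 to 0.43 (adjusted p = 0.788 in limma). Within batch 1 it was −1.28 and within batch 2 it was 0.26, so the batches went opposite ways, and Model replicate 1 stood above the other 3 libraries. For Mmp13 the difference was 0.04 (−0.84 to 0.93), for Timp2 −0.06 (−0.97 to 0.84), for Mmp12 0.13 (−0.68 to 0.95), for Mmp14 0.25 (−1.10 to 1.61) and for Mmp9 0.33 (−0.97 to 1.63). The signs of Mmp13, Timp2 and Mmp14 turned when single libraries were left out. With 2 libraries a group, changes of these sizes could not be told from none, which does not show that the groups were alike.

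MUS vs. Control shares its Control libraries with Model vs. Control and its MUS libraries with MUS vs. Model, and therefore is no independent check of either. Mmp13 and Timp1 rose and Timp2 fell, and 3 of the 10 genes were called, against 20.2% of all genes, 11.3% as higher and 8.91% as lower. With libraries scaled to the fragments on genes, 738 genes were higher and 1953 lower, in place of 1107 and 873. In deposited FPKM, the libraries of MUS lay above Control for 4 of the 10 genes and below for 2, where 39.6% and 33.8% of all genes did so. Mmp12, above in FPKM, lay below by fragments, at 94742 and 98306 in MUS against 116444 and 111312 in Control. Mmp13 was 24.8-fold and Timp1 30.4-fold higher in mean FPKM, with log2 fold changes of 4.59 ± 0.38 and 4.64 ± 0.40 (SE, adjusted p = 0.00133 for each in limma). Timp2 was 2.92-fold lower, at a log2 fold change of −1.44 ± 0.38 (SE, adjusted p = 0.0357 in limma), which became −0.94 with an adjusted p of 0.0935 without Control replicate 1 and −1.94 with an adjusted p of 0.00634 without Control replicate 2.

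Mmp19 and Mmp14 were not called in MUS vs. Control, at log2 fold changes of −1.25 (adjusted p = 0.0533 in limma) and 1.70 (adjusted p = 0.0699 in limma). With the replicate block the adjusted p was 0.0473 for Mmp19 and 0.033 for Mmp14, which raised the number of genes called from 3 to 5. Without Control replicate 1 their log2 fold changes were −0.66 and 0.81, with adjusted p of 0.204 and 0.199 in limma, and without Control replicate 2 they were −1.83 and 2.59, with adjusted p of 0.00711 and 0.0044. For the other 5 genes, the log2 fold changes ran from −0.35 for Mmp9 to 0.31 for Mmp12, with adjusted p between 0.539 and 0.864 in limma. The signs of Mmp12 and Adam17 turned to −0.23 and −0.28 when libraries were scaled to the fragments on genes.

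Genes that act with these enzymes were followed in 8 lists of 101 genes, of which 43 were tested. In Model vs. Control 15 of the 43 were higher and 3 lower at the thresholds above, with a median log2 fold change of 0.61, where 9.5% of all genes were higher and 5.56% lower, with a median of 0.04. The number called was between 9 and 11 without any single library other than Control replicate 2, and 22 without that one. Among the other metalloproteinases and the other ADAMs, 0 of 1 and 0 of 3 tested genes were called, and of the 19 Adamts genes none reached a mean of 1 FPKM over the 6 libraries. Genes left out in this way were not tested, though some passed 1 FPKM in 1 group. Mmp25 was at 0.033 and 0.115 FPKM in Control and 1.48 and 1.59 in Model. Adamts4 was at 0.0636 and 0.0273 in Control and 1.86 and 1.41 in Model. Adamts10 went the other way, from 2.52 and 1.14 to 0.351 and 0.533. Adam10, the other main sheddase, was at 53.5 and 39.6 FPKM in Control, 24.1 and 27.2 in Model, with 34.3 and 29.9 in MUS. From Control to Model its log2 fold change was −0.82 (adjusted p = 0.0869 in limma). Among the other inhibitors 1 of 5 genes, Timp3, was tested and not called.

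Of 7 tested partners of the sheddases, 2 rose and 1 fell, against 15.1% of all genes called. Rhbdf2, the pseudoprotease iRhom that brings Adam17 to the surface, rose from 9.81 and 23.2 FPKM to 43.3 and 66.1 (log2 fold change 1.75, adjusted p = 0.0396 in limma). Furin, which removes the propeptide of Adam17 and Mmp14, rose from 10.4 and 9.87 to 18.7 and 32.6 FPKM (1.21, adjusted p = 0.0462). Tspan14, a tetraspanin that binds Adam10, fell from 42.3 and 25.1 to 8.96 and 10.1 FPKM (log2 fold change −1.68, adjusted p = 0.0219).

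Of 18 tested proteins that sheddases release, 8 rose and 2 fell, where 15.1% of all genes were called. Tnf, the substrate that gave Adam17 its other name, TACE, was at 8.62 and 183 FPKM in Control, 1510 and 1034 in Model, with 654 and 701 in MUS, a log2 fold change of 4.89 ± 1.19 (SE, adjusted p = 0.033 in limma) in Model vs. Control. In MUS vs. Model it had −0.88 (adjusted p = 0.894 in limma). The adhesion molecule Vcam1, the growth factor Hbegf and the hyaluronan receptor Cd44 rose by 3.54, 3.53 and 1.79 on the log2 scale (adjusted p = 0.0184, 0.00157 and 0.0235 in limma). The receptors Il6ra and Csf1r fell by 1.48 and 1.37 (adjusted p = 0.029 and 0.0289 in limma). While these substrates differed, the level of Adam17 itself did not pass the test.

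In the plasmin system, which activates proenzymes of metalloproteinases, Serpinb2, an inhibitor of plasminogen activators, rose from 4.97 and 21.8 FPKM in Control to 508 and 444 in Model (log2 fold change 5.35, adjusted p = 0.00325 in limma). Plaur, the urokinase receptor, rose by 2.51 (adjusted p = 0.00575 in limma). Plau, urokinase itself, had −0.57 (adjusted p = 0.252 in limma). Of 9 tested matrix proteins cut by metalloproteinases 2 rose (9.5% of all genes), versican (Vcan, 3.81) and thrombospondin 1 (Thbs1, 2.44), with adjusted p of 0.00224 and 0.00907 in limma. Fibroblast and mesothelial markers summed to 19.2 to 20.5 FPKM in Control, 22.5 to 35.4 in Model and 23.996 to 26.2 in MUS, and their part in the matrix genes was not tested.

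In MUS vs. Model, 0 of the 43 genes were called, and 2 had an unadjusted p under 0.05 in limma. They are Tspan17, a tetraspanin that binds Adam10, at 10.3 and 7.17 FPKM in Model and 2.76 and 4.83 in MUS (log2 fold change −1.04, adjusted p = 0.413), and Trem2, a receptor that Adam10 and Adam17 release, at 97.7 and 61.8 in Model and 25.5 and 38.0 in MUS (−1.29, adjusted p = 0.463). The positive differences with the smallest p were those of Mertk, another shed receptor (0.91, adjusted p = 0.647 in limma), and Timp3, an inhibitor of Adam17 (0.59, adjusted p = 0.679 in limma). Timp3 was low, at 0.470 and 1.61 FPKM in Model and 1.93 and 1.97 in MUS.

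In MUS vs. Control 14 of the 43 genes were higher and 5 lower, where 11.3% of all genes were higher and 8.91% lower. The 19 genes called became 4 without MUS replicate 1 and 7 without MUS replicate 2. Adam15 was called there, at 13.1 and 7.37 FPKM in Control, 4.69 and 4.20 in Model, with 2.22 and 3.12 in MUS, with a log2 fold change of −1.58 (adjusted p = 0.0113 in limma). In Model vs. Control it was not called (adjusted p = 0.0604 in limma). Trem2 fell by 1.85 (adjusted p = 0.0174 in limma), and Tspan14 by 2.09 (adjusted p = 0.00848). Il6ra and Csf1r fell by 1.56 and 1.22 (adjusted p = 0.0194 and 0.0328 in limma). Of the sheddase substrates called, Tnf, Hbegf, Vcam1 and Notch2 had the largest rises, at log2 fold changes of 4.01, 3.62, 3.37 and 1.69. Furin and Pcsk7, another convertase that removes propeptides, rose by 1.29 and 1.02. In the plasmin list Serpinb2 and Plaur rose by 5.31 and 2.10, and Vcan and Thbs1 rose by 4.44 and 3.11 among the matrix proteins, with adjusted p of at most 0.0486 in limma for all genes named here as risen.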

How the data were processed

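The authors deposited 1 table with the FPKM of each gene in the 6 libraries, and all its columns were used (0 unmapped). The study's methods name RSEM for FPKM and DESeq2 1.20.0, whereas the submitters' processing notes list HISAT2, featureCounts 1.5.0-p3 and GRCm39. The positions listed for genes match GRCm38, since 98.3% of 54409 identifiers shared with GENCODE M21 agreed in start and end. Per library, FPKM times gene length came in whole multiples of 1 step (tolerance 0.1 of the step), which gave whole fragments. For a 1 kb gene the limit that a count of 0 allows, 3 fragments, equals 0.131 to 0.213 FPKM, for counting error only.

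Values were fitted as log2(FPKM + 1), which understates changes of low genes, for 9794 genes with a mean of at least 1 FPKM with limma 3.58.1 (lmFit, contrasts.fit and eBayes with trend) in R 4.3.3, with all 6 libraries in 1 model of 3 groups and 3 residual plus 4.04 prior degrees of freedom. Tests were two-sided, with Benjamini-Hochberg adjustment over all genes tested. The thresholds are those of the study. The fit was tested on simulated data. DESeq2 was not run here. Python 3.11.15, NumPy 2.4.6, pandas 2.3.3 and Matplotlib 3.10.9 served for files and figures.

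The labels give the replicate number as the batch, so the numbers pair the samples. Across genes, replicate differences correlated at 0.12 between Control and Model, 0.14 between Model and MUS and -0.09 between Control and MUS. The block was an alternative, since the study's methods use none. Members and lists were chosen with earlier results of these data known. All 10 members are named, and of the other lists, for each comparison with Control, up to 4 called genes with the largest rise and up to 4 with the largest fall per list, among genes whose libraries do not overlap, and for MUS vs. Model the 2 in each direction with the smallest p. Adam10, Plau and Tnf in MUS vs. Model, the overlapping genes and the values of Adam15 and Timp3 beside their calls were chosen after their values were seen. So were the untested genes Mmp25, Adamts4 and Adamts10. For 1 gene of these lists no values are reported here. Promoters are from RefSeq. Protein sequences were not analysed here.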

Additional observations from a re-analysis of the deposited data

How the results depend on the processing

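The 19 alternatives were pseudocounts of 0.1 and 0.5, no filter or a mean of at least 5 FPKM, 4 other scalings (fragments on genes, rescaling without mitochondrial genes and the 20 highest genes, quantile normalization and voom on recovered fragments), a gene-length correction alone and with the replicate block, the replicate block, no trend, only the 2 groups compared, and leaving out each library, where the lone library of its group is assumed to vary like the others. Mmp8 could not be tested at a mean of at least 5 FPKM. In MUS vs. Model 0 of the 10 genes and 0 of the 43 list genes were called under all 19. Mmp13 and Timp1 were called under all 19 in both comparisons with Control.

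In Model vs. Control, leaving out single libraries gave 2 to 6 of the 10 genes and 9 to 22 of the 43 list genes, and the list genes called were 5 with no filter and 9 with only the 2 groups, in place of 18. In MUS vs. Control the ranges were 2 to 5 and 4 to 21, with 6 list genes with no filter in place of 19, and the replicate block gave 5 of the 10 genes in place of 3. Beyond Timp2 in Model vs. Control and Mmp14 and Mmp19 in MUS vs. Control, the block changed no call of the 10 genes. Over all genes, 1475 calls in Model vs. Control became 260 with no filter, 2374 when rescaled, 2734 with voom, 797 with only the 2 groups, and 763, 692, 800 and 797 without Control replicate 1, Model replicate 1, MUS replicate 1 and MUS replicate 2. In MUS vs. Control 1980 became 456 with no filter, 3144 with voom, and 1082, 184 and 719 without Control replicate 1, MUS replicate 1 and MUS replicate 2. In MUS vs. Model 0 became 1 at a pseudocount of 0.1, 4 with the block, 7 with only the 2 groups, and 5, 5 and 31 without Control replicate 1, Control replicate 2 and Model replicate 2.

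Signs turned for some log2 fold changes that were not called. Mmp12 in Model vs. Control was -0.37, -0.46, -0.70 and -0.38 under the 4 scalings in the order above, which put the median of all genes at -0.40, -0.46, -0.06 and -0.50, and in MUS vs. Control -0.23, -0.24, -0.47 and -0.23. Adam17 in MUS vs. Control was -0.28, -0.29, -0.41 and -0.29. Timp2 in MUS vs. Model was 0.0197 when rescaled. Leaving out single libraries gave in Model vs. Control -1.58 to 0.22 for Mmp9 and -0.60 to 0.25 for Adam17, in MUS vs. Model -0.14 to 0.23 for Mmp13, -0.0067 to 0.52 for Mmp14 and -0.18 to 0.0553 for Timp2, and in MUS vs. Control -0.46 to 0.30 for Mmp8, -1.25 to 0.55 for Mmp9, -0.905 to 0.45 for Adam8 and -0.18 to 0.67 for Adam17. The cause was not tested.

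Mmp19 lost its call in Model vs. Control with no filter (adjusted p = 0.129), with only the 2 groups (0.0542) and without Model replicate 1 (0.107), Model replicate 2 (0.0536), MUS replicate 1 (0.0533) and MUS replicate 2 (0.0529). Timp2 in MUS vs. Control lost it with no filter (0.136) and without MUS replicate 1 (0.221) or MUS replicate 2 (0.159). The Control libraries differed by up to 3.77-fold for the 10 genes, and the effect of depth on these values was not tested.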
